A study of Mus musculus with 15 samples.

Results

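The tubulin genes described here were 10 rows of a gene count table from mouse tibialis anterior, the muscle at the front of the lower leg. They were the rows whose Ensembl identifiers carry the symbols *Tuba1a*, *Tuba1b*, *Tuba1c*, *Tuba4a*, *Tuba8*, *Tubb2a*, *Tubb2b*, *Tubb4b*, *Tubb5* and *Tubb6* in the GRCm38 annotation, 10 of 30672 genes in the table. All 10 passed the filter on low counts, which left 15533 genes. The study sequenced polyadenylated RNA of this muscle in 15 libraries, all from male 129Pas mice aged 7 weeks. They comprised 4 of untreated wild-type mice (WT), 4 of wild-type mice treated with tamoxifen (WT + TAM), 4 of untreated males without functional *Mtm1*, an X-linked gene (Mtm1-/y), and 3 of tamoxifen-treated Mtm1-/y males (Mtm1-/y + TAM). Mtm1-/y mice are a model of X-linked myotubular myopathy, since *Mtm1* encodes the phosphoinositide phosphatase myotubularin. Tamoxifen is a modulator of oestrogen receptors, and neither its dose and schedule nor the *Mtm1* allele is named in the labels. The labels list the libraries as separate samples without naming animals, so p-values measure the spread between these libraries.

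Microtubules are hollow polymers of dimers of 1 alpha and 1 beta tubulin. Mammals have several genes for each, and their proteins, called isotypes, differ mainly in the last residues, the acidic tail that faces outwards and carries most tubulin modifications. In a muscle fibre, microtubules form a grid under the membrane and around the nuclei, which positions nuclei and organelles, and a denser grid is known from dystrophic and regenerating fibres. Most alpha tubulin genes encode a tyrosine at the very end, which vasohibins remove and tubulin tyrosine ligase adds back.

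The ends of the coding sequences are shown because they tell the isotypes apart and because they set which alpha tubulins start with a tyrosine. Each line holds the last 48 bases of the coding sequence, stop codon included, read from the GENCODE M21 transcripts (GRCm38), 5′ to 3′ on the coding strand, with the last codon before the stop in capitals. They are given for the alpha genes *Tuba1c*, *Tuba4a* and *Tuba8* and for the beta genes *Tubb2a*, *Tubb2b*, *Tubb4b* and *Tubb5*.
Tuba1c: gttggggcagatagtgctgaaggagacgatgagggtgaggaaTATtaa
Tuba4a: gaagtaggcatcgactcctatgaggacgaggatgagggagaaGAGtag
Tuba8: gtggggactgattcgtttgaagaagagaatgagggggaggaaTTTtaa
Tubb2a: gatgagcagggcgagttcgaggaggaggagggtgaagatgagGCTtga
Tubb2b: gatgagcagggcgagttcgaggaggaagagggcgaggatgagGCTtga
Tubb4b: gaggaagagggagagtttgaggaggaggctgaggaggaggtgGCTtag
Tubb5: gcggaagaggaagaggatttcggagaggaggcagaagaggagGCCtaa

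The last codon encoded tyrosine in *Tuba1a*, *Tuba1b* and *Tuba1c*, glutamate in *Tuba4a* and phenylalanine in *Tuba8*. The whole coding sequences of *Tuba1a* and *Tuba1b* were 98.3% identical and those of *Tubb2a* and *Tubb2b* 96.5% identical, whereas *Tubb5* and *Tubb6* shared 80.2%. Such likeness limits which reads can be assigned. Of all stretches of 50 bases in the annotated transcripts of a gene, 24.5% in *Tuba1a*, 24.9% in *Tuba1b* and 47.3% in *Tuba1c* occurred in no other gene, so the counts of these 3 genes are uncertain. The figure was 50.4% for *Tubb2a*, 63.1% for *Tubb2b*, 58.7% for *Tubb4b*, 85.3% for *Tuba8*, 99.9% for *Tubb5* and 100% for *Tubb6*. In *Tuba4a* it was 64.6%, and 34.6% of the stretches lay in transcripts of *Stk16*, which overlaps it on the opposite strand. The library kit kept the strand, but whether the counting used it was not stated in those sources. *Stk16* held 314 to 890 counts per library and *Tuba4a* 11736 to 41774.

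The libraries held 18042558 to 45823277 counts assigned to genes. Values are CPM, counts relative to each library's total, scaled with TMM factors, and 1 count was worth 0.0218 to 0.0554 CPM before that scaling. Pairs of libraries within a group had a Pearson's r, across genes, of 0.961 to 0.99. Libraries of untreated Mtm1-/y replicate 1 and WT + TAM replicate 1 stood apart on principal components 2 and 3 (13.5% and 10.3% of the variance). Calls of the 10 tubulin genes that changed without them are given both ways. *Mtm1* itself measured 15.3 ± 0.294 CPM in WT, 16.3 ± 1.88 CPM in WT + TAM, 3.36 ± 0.338 CPM in Mtm1-/y and 3.49 ± 0.381 CPM in Mtm1-/y + TAM libraries (SD), so each library went with its labelled genotype. The 10 markers of fast muscle fibres summed to 150266 to 253232 CPM in every library, as the tissue label says.

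In WT muscle, the most abundant tubulin transcript per kilobase of exon was *Tuba4a*, at 242 ± 29.8 CPM per kilobase (SD, n = 4), followed by *Tuba8*, an alpha tubulin gene of muscle, at 93.0 ± 17.6. The leading beta tubulin genes were *Tubb4b*, at 46.1 ± 6.33, and *Tubb5*, a widely expressed gene, at 18.4 ± 1.44 CPM per kilobase. *Tubb6* followed with 6.26 ± 0.606, *Tubb2a* with 4.84 ± 0.598 and *Tuba1a* with 4.17 ± 0.702 CPM per kilobase, where the last 2 overlapped in range. *Tuba1b* stood at 1.66 ± 0.277, *Tuba1c* at 0.717 ± 0.0967 and *Tubb2b* at 0.543 ± 0.168 CPM per kilobase, and the ranges of these last 2 overlapped. The other neighbours in this order did not overlap over the 4 WT libraries. WT + TAM muscle kept the order of the means, with *Tubb6* then overlapping *Tubb2a*.

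In both mutant groups *Tubb6* moved from place 5 to place 4, above *Tubb5*, with 53.2 ± 32.6 CPM per kilobase in Mtm1-/y (n = 4) and 55.8 ± 17.3 in Mtm1-/y + TAM libraries (n = 3). In Mtm1-/y libraries its range overlapped those of both *Tubb4b* and *Tubb5*. In Mtm1-/y + TAM libraries *Tubb6*, *Tuba8* and *Tubb4b* had overlapping ranges and means of 55.8, 56.6 and 56.8 CPM per kilobase, so that the means of *Tubb4b* and *Tuba8* also changed places. *Tuba4a* was first in all 4 groups and *Tubb2b* last.

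**Figure D1:**
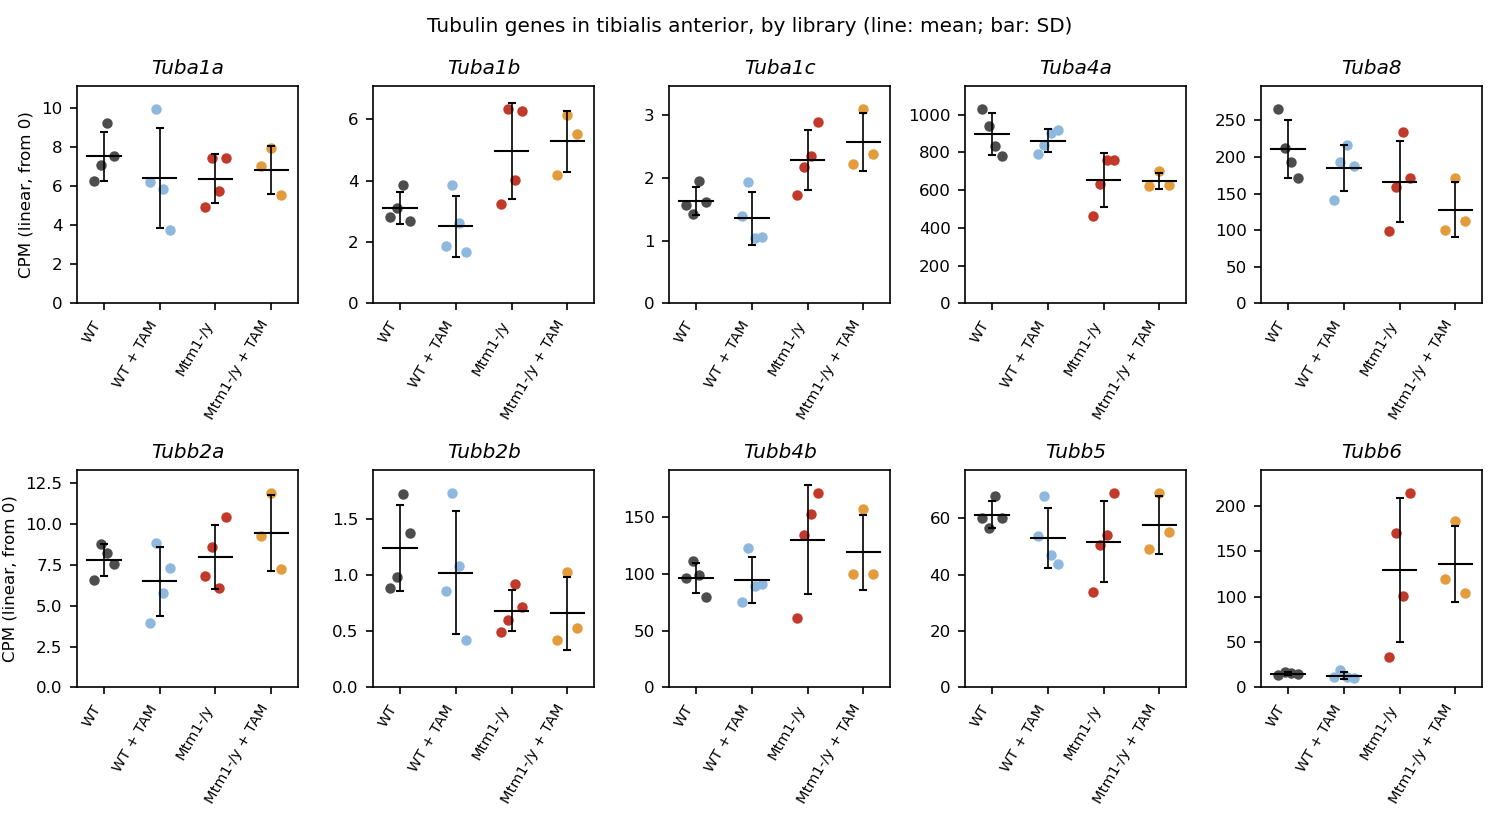
CPM of the 10 tubulin genes on linear axes from 0, with each point a library, the line the group mean and the bar the SD (n = 4, 4, 4 and 3). *Tubb6* lies between 10.1 and 19.0 CPM in the 8 wild-type libraries and between 33.2 and 214 CPM in the 7 mutant libraries, while the points of most other genes overlap between genotypes.

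The effect of genotype without the drug was measured between untreated mutant and wild-type mice. *Tubb6* was higher, *Tuba4a* was lower, and the other 8 genes were not called. With edgeR's quasi-likelihood test and an adjusted p under 0.05 over all genes, 2 of the 10 genes were called, where 30.4% of all genes tested were (15.5% higher, 14.9% lower). Over the 10 genes the log2 fold changes had a median of -0.10, beside 0.00047 over all genes, with 5 above 0 (4 with upper-quartile factors).

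*Tubb6* encodes a beta tubulin known from regenerating and dystrophic fibres. Its gene (ENSMUSG00000001473) spans 67390717 to 67402749 on the plus strand of chromosome 18 in GRCm38. It measured 13.7, 16.9, 16.1 and 14.4 CPM in WT replicates 1 to 4. The Mtm1-/y replicates 1 to 4 held 33.2, 170, 101 and 214 CPM. The lowest mutant library was above the highest WT library, and replicate 1 was far below the other mutant libraries. The log2 fold change was 3.09 (SE 0.45, 95% interval 2.11 to 4.07), or 8.51-fold, with an edgeR adjusted p of 0.000356. It was called under each of 24 alternative settings, with log2 fold changes of 2.74 to 3.41 and adjusted p of 1.1e-10 to 0.00295.

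*Tuba4a* (ENSMUSG00000026202, chromosome 1, 75214228 to 75219865, minus strand) encodes an alpha tubulin that, like that of *Tuba8*, is made without a terminal tyrosine. WT replicates held 1028, 939, 835 and 779 CPM. Mtm1-/y replicates held 462, 632, 762 and 757 CPM. The groups did not overlap, although the highest mutant library and the lowest WT library were close. The log2 fold change was -0.45 (SE 0.14, 95% interval -0.76 to -0.15, edgeR adjusted p 0.0257). With 1 library left out in turn it ran from -0.53 to -0.32, and the call held without Mtm1-/y replicate 1. The call was lost without WT replicate 1 (-0.38, adjusted p 0.0812), WT replicate 2 (-0.43, 0.0635) or Mtm1-/y replicate 2 (-0.44, 0.0594), and when only these groups were fitted (-0.45, 0.0691). *Stk16* on the opposite strand differed by -0.05 (SE 0.13, edgeR adjusted p 0.795). Groups failed to overlap for *Tubb6* and *Tuba4a*, 2 of the 10 genes, and for 30.5% of all genes tested.

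Among the remaining alpha tubulin genes, *Tuba1b* (ENSMUSG00000023004, chromosome 15, 98931425 to 98934565), which is expressed in most cell types, held 2.80, 3.12, 3.85 and 2.70 CPM in WT replicates 1 to 4. The Mtm1-/y values were 3.24, 6.33, 4.04 and 6.27 CPM. Mutant replicates 2, 3 and 4 were above all WT libraries, replicate 3 by little, and replicate 1 lay among them. Its log2 fold change was 0.68 (SE 0.26, edgeR adjusted p 0.0633), short of the threshold. It was called without Mtm1-/y replicate 1 (0.84, adjusted p 0.0211), without Mtm1-/y replicate 3 (0.79, 0.0490), without WT + TAM replicate 2 (0.68, 0.0402), with the replicate block (0.65, 0.0448) and by DESeq2 (0.69, 0.0345). *Tuba1c* (chromosome 15, 99029891 to 99038110), a close relative of it, differed by 0.48 (SE 0.22, edgeR adjusted p 0.115), with 36 to 129 counts per library. *Tuba8* (chromosome 6, 121210696 to 121226854) differed by -0.34 (SE 0.23) and *Tuba1a* (chromosome 15, 98949837 to 98953703), known best from neurons, by -0.23 (SE 0.24). With 1 library left out in turn these ran from -0.53 to -0.16 for *Tuba8* and from -0.32 to -0.12 for *Tuba1a*.

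Among the beta tubulin genes, *Tubb4b* (ENSMUSG00000036752, chromosome 2, 25222160 to 25224702) held 95.9, 111, 98.6 and 79.3 CPM in WT replicates. Mtm1-/y replicates held 61.4, 134, 153 and 171 CPM. Replicate 1 was below all WT libraries and the other mutant libraries were above them. The log2 fold change was 0.43 (SE 0.26, edgeR adjusted p 0.232), and 0.66 (adjusted p 0.0144) without Mtm1-/y replicate 1. *Tubb5* (chromosome 17, 35833921 to 35838306) averaged 61.2 ± 4.80 CPM over WT and 51.7 ± 14.4 CPM over mutant libraries (SD, n = 4 each), a log2 difference of -0.24 (SE 0.18). With 1 library left out in turn this difference ran from -0.41 to -0.08. The 2 genes best known from neurons, *Tubb2a* (chromosome 13, 34074274 to 34078007) and *Tubb2b* (chromosome 13, 34126748 to 34130466), differed by 0.04 (SE 0.23) and -0.85 (SE 0.39, edgeR adjusted p 0.110). *Tubb2b* rested on 15 to 47 counts per library.

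Leaving out Mtm1-/y replicate 1 raised the count of tubulin genes called between Mtm1-/y and WT from 2 to 4, namely *Tubb6*, *Tuba4a*, *Tuba1b* and *Tubb4b*. Without WT replicate 1, WT replicate 2 or Mtm1-/y replicate 2 the count was 1. Without Mtm1-/y replicate 1 and WT + TAM replicate 1 together it was 5, with *Tuba1c* added.

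**Figure D2:**
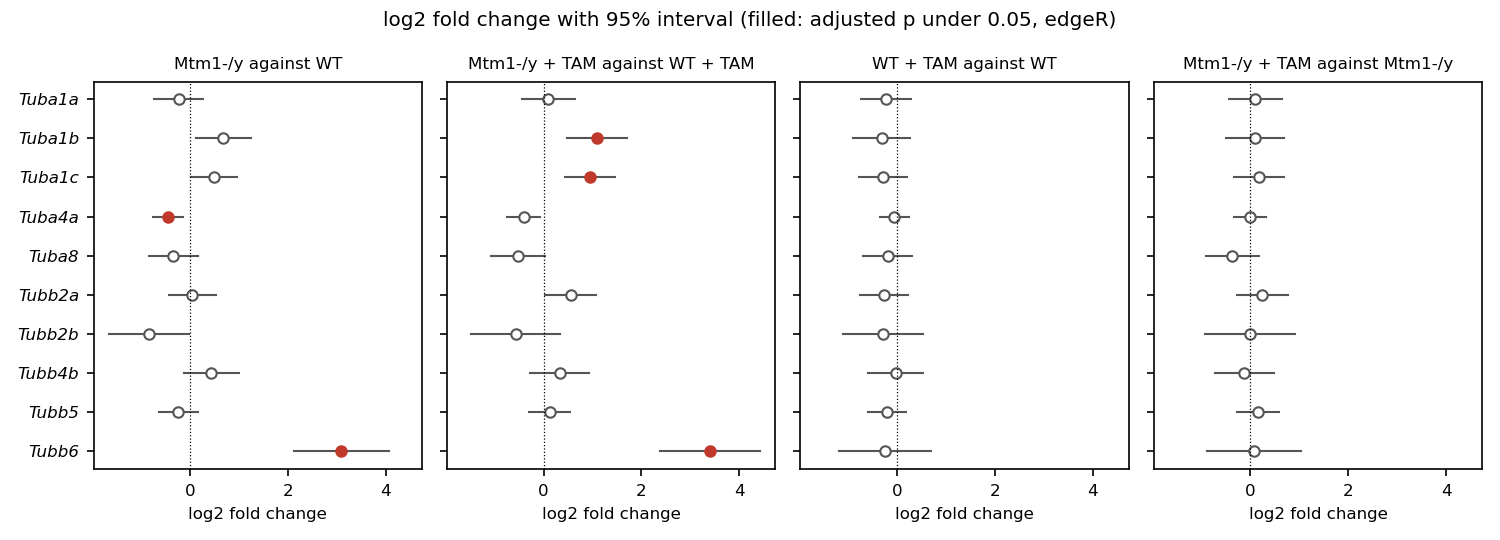
Log2 fold change (x axis) of each tubulin gene in 4 comparisons, with its 95% interval as a line; filled points had an edgeR adjusted p under 0.05. *Tubb6* lies at 3.09 and 3.41 in the comparisons of genotype, and every interval in the comparisons of tamoxifen crosses 0.

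The effect of genotype under the drug was measured between the treated groups, which share no library with the untreated ones. All 15 libraries were fitted together with a shared estimate of each gene's spread. The calls in this comparison therefore also depend on the untreated libraries. *Tubb6*, *Tuba1b* and *Tuba1c* were higher and no tubulin gene was called lower. These were 3 of the 10 genes, where 20.1% of all genes tested were called (10.6% higher, 9.46% lower), and the median log2 fold change was 0.23 beside -0.02 over all genes. *Tubb6* held 11.3, 19.0, 11.2 and 10.1 CPM in WT + TAM replicates 1 to 4 and 120, 184 and 104 CPM in Mtm1-/y + TAM replicates 1 to 3. Its log2 fold change was 3.41 (SE 0.47, edgeR adjusted p 0.000422), or 10.6-fold, and it was called under each of 24 alternatives.

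*Tuba1b* held 1.88, 3.87, 2.63 and 1.68 CPM in WT + TAM and 4.19, 6.14 and 5.54 CPM in Mtm1-/y + TAM libraries. *Tuba1c* (ENSMUSG00000043091) held 1.39, 1.94, 1.04 and 1.07 CPM and 2.23, 3.10 and 2.39 CPM. Neither gene's groups overlapped. The log2 fold changes were 1.09 for *Tuba1b* (SE 0.29, edgeR adjusted p 0.0147) and 0.95 for *Tuba1c* (SE 0.24, edgeR adjusted p 0.0134). Both calls were lost without Mtm1-/y + TAM replicate 2, where *Tuba1b* differed by 0.97 (adjusted p 0.0707) and *Tuba1c* by 0.79 (adjusted p 0.0812), leaving *Tubb6* as the 1 gene called. *Tuba4a* differed by -0.41 (SE 0.16), with groups that did not overlap, and missed the threshold (edgeR adjusted p 0.0754). It was called by DESeq2 (-0.42, adjusted p 0.0398), when only these groups were fitted (-0.40, 0.0322) and without Mtm1-/y replicate 1 (-0.41, 0.0158). Without Mtm1-/y replicate 1 and WT + TAM replicate 1 together, 5 genes were called, with *Tuba4a* (-0.45) and *Tuba8* (-0.64) added as lower. *Tubb2a* differed by 0.55 (SE 0.25, edgeR adjusted p 0.129) and was called with the replicate block (0.63, 0.0363). Groups did not overlap for 4 of the 10 genes and for 31.6% of all genes tested.

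Between the 2 comparisons of genotype, which share no library, 8 of the 10 tubulin genes had log2 fold changes of the same sign, as did 73.4% of all genes tested. The exceptions were *Tuba1a* (-0.23 and 0.09) and *Tubb5* (-0.24 and 0.12), neither of which was called in either comparison.

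The effect of tamoxifen in mutants was measured between treated and untreated Mtm1-/y libraries. No tubulin gene was called by edgeR, DESeq2 or limma-voom, and 0 of the 10 had an unadjusted p under 0.05. Of all genes tested, 0.0129% were called. The log2 fold changes ran from -0.37 (*Tuba8*) to 0.24 (*Tubb2a*), with a median of 0.08. *Tubb6* differed by 0.07 (SE 0.45, 95% interval -0.89 to 1.03), so that changes from 0.538-fold to 2.04-fold were within its interval. *Tuba4a* differed by -0.01 (SE 0.15, 95% interval -0.34 to 0.32).

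In wild-type muscle, WT + TAM against WT, all 10 log2 fold changes were below 0, from -0.31 (*Tuba1b*) to -0.03 (*Tubb4b*), with a median of -0.24 beside 0.0024 over all genes, and all 10 were also below 0 with the other scalings. Without 1 library in turn, *Tubb4b* reached 0.07 and *Tuba4a* 0.02. None was called by edgeR, DESeq2 or limma-voom, and 0 of 10 had an unadjusted p under 0.05, where 0.309% of all genes tested were called. *Tubb6* differed by -0.25 (SE 0.43, 95% interval -1.18 to 0.69). The genotype by tamoxifen interaction, which asks whether the drug acted differently in the genotypes, called none of the 10 genes (0 of all genes tested, 0%, by edgeR; 0 of the 10 by DESeq2 and limma-voom; 0 at an unadjusted p under 0.05). The smallest edgeR adjusted p among the 10 was 0.60, for *Tubb2a* (0.51, SE 0.34).

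As a share of the summed CPM per kilobase of the 5 beta tubulin genes, *Tubb6* made up 8.23% ± 0.493 in WT (SD, n = 4) and 7.38% ± 0.883 in WT + TAM libraries (n = 4). It made up 36.0% ± 10.6 in Mtm1-/y (n = 4) and 40.8% ± 2.14 in Mtm1-/y + TAM libraries (n = 3). In every mutant library, including Mtm1-/y replicate 1 at 23.6%, the share was above that of every wild-type library, the highest of which was 8.77%. *Tubb4b* held 60.4% ± 3.37, 63.7% ± 2.64, 47.1% ± 6.55 and 41.7% ± 1.05 in the same order, and *Tubb5* 24.3% ± 2.76, 22.6% ± 3.05, 12.5% ± 3.54 and 13.0% ± 1.68. These shares are descriptions without a test, and a larger share of *Tubb6* lowers the others by construction. With the stretches found in no other gene as the length, *Tubb6* made up 5.61% in WT and 26.8% in Mtm1-/y libraries.

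**Figure D3:**
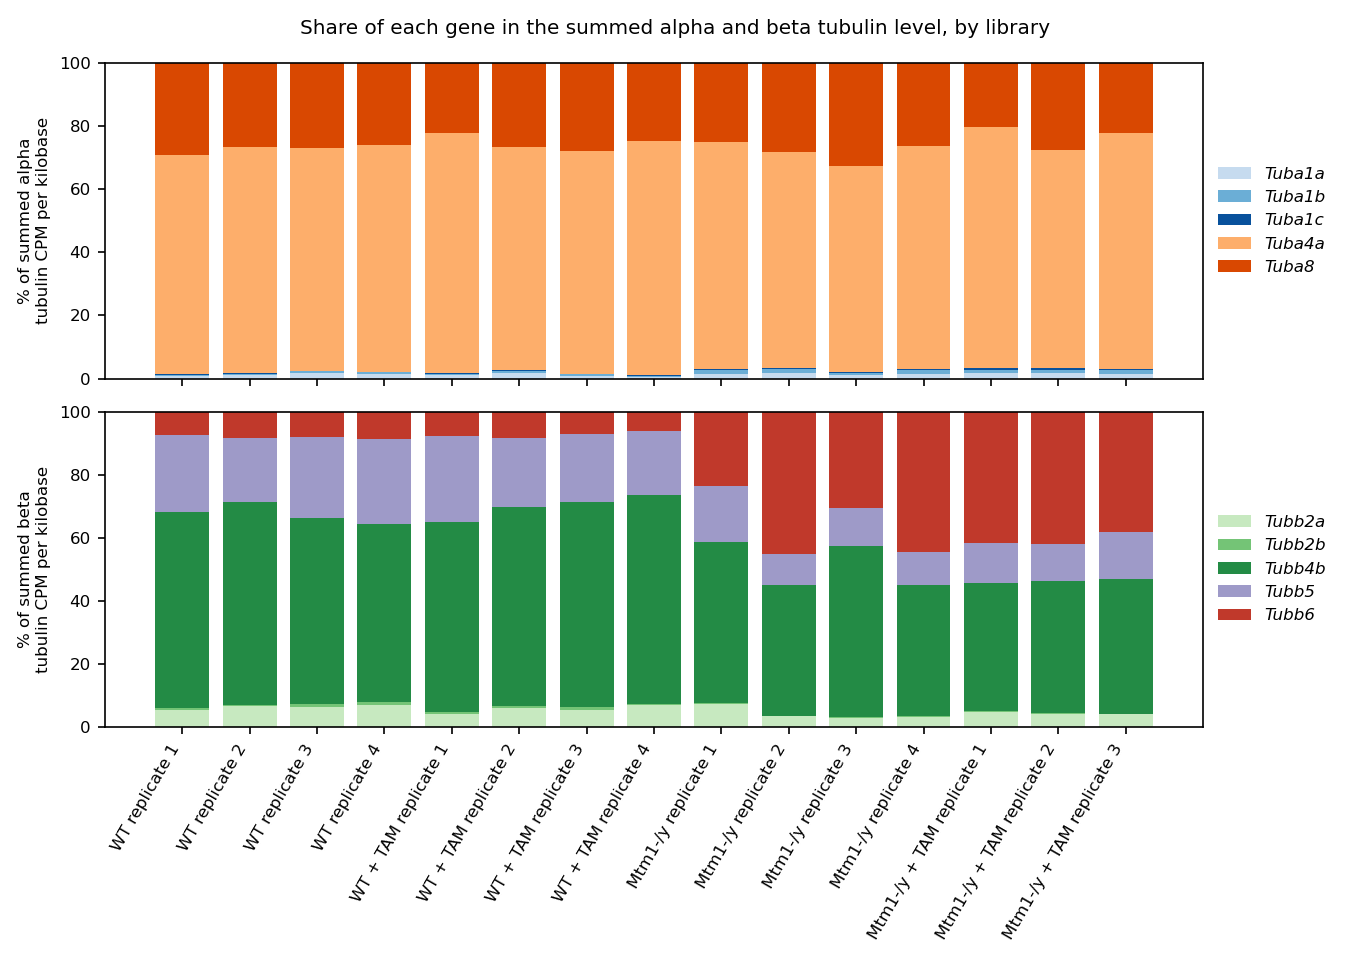
Share of each gene (y axis, percent) in the summed CPM per kilobase of the alpha genes (top) and the beta genes (bottom), 1 bar per library. *Tubb6* fills 6.33% to 8.77% of the beta bars in wild-type libraries and 23.6% to 45.1% in mutant libraries, and *Tuba4a* fills most of every alpha bar.

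On the alpha side the composition moved less. *Tuba4a* made up 70.9% ± 1.19 in WT, 72.9% ± 2.59 in WT + TAM, 69.1% ± 2.94 in Mtm1-/y and 73.5% ± 3.88 in Mtm1-/y + TAM libraries. *Tuba8* made up most of the rest, from 20.2% to 32.8% per library. The 3 genes that encode a terminal tyrosine, *Tuba1a*, *Tuba1b* and *Tuba1c*, together made up 1.96% ± 0.481, 1.73% ± 0.673, 2.86% ± 0.587 and 3.23% ± 0.0888 in the same order of groups. With the stretches found in no other gene as the length, and the counts unchanged, these sums were 5.28%, 4.67%, 7.44% and 8.26%. Transcripts that encode alpha tubulin without a terminal tyrosine thus made up 96.6% to 99.0% of the alpha level in these libraries on the main scale.

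The summed alpha level was 341 ± 46.6 CPM per kilobase in WT, 320 ± 27.8 in WT + TAM, 257 ± 61.6 in Mtm1-/y and 240 ± 29.4 in Mtm1-/y + TAM libraries. The summed beta level was 76.1 ± 7.06, 70.9 ± 15.2, 136 ± 58.4 and 136 ± 37.3 CPM per kilobase. The ratio of the alpha sum to the beta sum was 4.50 ± 0.624 in WT, 4.64 (3.44 to 5.27) in WT + TAM, 2.11 ± 0.718 in Mtm1-/y and 1.81 ± 0.254 in Mtm1-/y + TAM libraries. The highest ratio of a mutant library was 3.02, in Mtm1-/y replicate 1, and the lowest of a wild-type library was 3.44. In Mtm1-/y replicate 1 the beta sum, at 57.6 CPM per kilobase, was below that of each wild-type library, and its alpha sum of 174 was the lowest of all 15 libraries.

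The genes whose log2 CPM followed a tubulin gene most closely were sought over all genes tested, as a description with no test. Over the 15 libraries, *Tubb6* was most like *Pomp*, a proteasome assembly factor (Pearson's r 0.987), *Ube2z*, a ubiquitin-conjugating enzyme (0.986), and *Nfkb2*, a subunit of NF-kappaB (0.986). Within the 8 wild-type libraries these r were 0.764, 0.487 and 0.804, and within the 7 mutant libraries 0.945, 0.962 and 0.963. *Tuba1b* was most like *Med22*, *Dynll1* and *1110038F14Rik* (0.949, 0.944 and 0.936), *Tuba1c* like *Osgin2*, *Thg1l* and *Pum3* (0.950, 0.932 and 0.931), and *Tubb2b* like *Cfl1*, the actin-severing factor cofilin, *Lmnb2* and *Fam57a* (0.898, 0.869 and 0.862). Among the tubulin genes themselves the closest pairs were *Tuba1b* with *Tuba1c* (0.895), *Tubb6* with *Tuba1b* (0.886) and with *Tuba1c* (0.881), and *Tuba4a* with *Tuba8* (0.855). *Tubb6* and *Tubb5* had an r of 0.159 over all libraries, and 0.877 and 0.903 within the wild-type and the mutant libraries. All these points share the genotype difference, the library and its scaling.

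Of the tubulin genes outside the 10, 5 passed the filter. Of these, 4 were called lower in Mtm1-/y than in WT muscle, where 14.9% of all genes tested were. They were the beta gene *Tubb4a* (-1.04, SE 0.31), the delta and epsilon tubulin genes *Tubd1* (-0.76, SE 0.15) and *Tube1* (-0.71, SE 0.25), both of the centriole, and the gamma tubulin gene *Tubg1* (-0.33, SE 0.09), which nucleates microtubules. *Tubd1* held at least 7.79 CPM in the 4 WT libraries and 4.13 to 6.42 CPM in the 4 Mtm1-/y libraries (edgeR adjusted p 0.00169). *Tubg2* differed by 0.40 (SE 0.27, edgeR adjusted p 0.273). Under Mtm1-/y + TAM against WT + TAM, 1 of the 5 was called lower, *Tubd1* (-0.49, edgeR adjusted p 0.0453). The neuronal gene *Tubb3* had at most 5 counts in a library, the platelet gene *Tubb1* at most 3 and *Tuba3b* at most 1, and *Tuba3a* and *Tubal3* were not analysed here. Without WT replicate 4, 2 of the 5 genes were called lower, and with no filter 2 of 8 were. *Tubb4a* rested on 20 to 61 and *Tube1* on 20 to 77 counts per untreated library.

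The counts of the lists that follow are to be read beside all genes tested, of which 15.5% were called higher and 14.9% lower in Mtm1-/y than in WT muscle, and 10.6% and 9.46% between the treated genotypes. Unless said otherwise, list genes are named by size of change, from those called whose log2 CPM averaged 1 or more. Of 21 tested genes that fold tubulin and join it into dimers, edgeR called 11 higher and 0 lower between Mtm1-/y and WT (median 0.24). The 3 named are *Tbcc* (1.15, SE 0.14), a cofactor that releases the finished dimer, *Tbcb* (0.70, SE 0.10), a cofactor that binds alpha tubulin, and *Pfdn5* (0.55, SE 0.09), a prefoldin subunit. *Tbcc* rose from 3.59 ± 0.219 to 7.96 ± 1.53 CPM (SD, n = 4 each; edgeR adjusted p 4.8e-05). The count was 7 without WT replicate 2, 3 or 4 in turn, with upper-quartile factors, or when only these groups were fitted. Under Mtm1-/y + TAM against WT + TAM 9 were higher and 0 lower. None of the 3 genes of tubulin mRNA autoregulation, by which soluble tubulin triggers decay of tubulin mRNA as it is translated, was called by edgeR, DESeq2 or limma-voom in any of the 4 comparisons of groups, and 0 had an unadjusted p under 0.05.

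Among 28 genes of kinesin, dynein and dynactin, edgeR called 12 higher and 0 lower between Mtm1-/y and WT muscle (median 0.25). DESeq2 and limma-voom each called 1 lower, the dynein light chain gene *Dynll2* (-0.40, SE 0.15, edgeR adjusted p 0.0528), as did edgeR with upper-quartile factors, with the stricter filter or without Mtm1-/y replicate 3. The largest change among those called was that of *Kif5a*, a kinesin heavy chain best known from neurons (1.49, SE 0.41), which lay below the level set for naming and was picked after its value was seen. Above that level the largest were those of the dynein light chains *Dynll1* (0.78, SE 0.24) and *Dynlrb1* (0.58, SE 0.11) and the dynactin subunit *Dctn2* (0.57, SE 0.10). The count was 7 without WT replicate 2, WT replicate 4 or Mtm1-/y replicate 2. Under tamoxifen 6 were higher and 2 lower between the genotypes.

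Of 27 tested genes of microtubule-associated and plus-end proteins, 8 were higher and 3 lower. *Map1a* rose from 11.6 ± 2.32 to 69.2 ± 31.5 CPM (SD, n = 4 each), and its log2 fold change was 2.57 (SE 0.51, edgeR adjusted p 0.00271). *Map1lc3a*, whose protein LC3A marks autophagosomes, differed by 1.29 (SE 0.20) and *Map1b* by 1.01 (SE 0.19), while the linker genes *Clip2* (-0.72, SE 0.17) and *Clip3* (-0.63, SE 0.22) were lower. The third gene called lower, *Map2* (-1.60, SE 0.24), best known from dendrites, lay below the level set for naming and was likewise picked after its value was seen. Without Mtm1-/y replicate 1, 5 genes of this list were lower. Under tamoxifen 3 were higher and 4 lower between the genotypes.

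Of 19 tested enzymes that modify tubulin, 3 were higher and 2 lower, a share not above that of all genes (30.4% called). *Tpgs1*, a subunit of the polyglutamylase complex (1.25, SE 0.18), *Ttll12*, of the tyrosine ligase family (0.61, SE 0.17), and *Svbp*, the partner of vasohibins (0.54, SE 0.12), were higher. The polyglutamylase gene *Ttll7* (-0.74, SE 0.16) and *Vash1*, the gene of vasohibin that removes the terminal tyrosine (-0.71, SE 0.22), were lower. The count of higher genes was 7 without Mtm1-/y replicate 1 and 6 without Mtm1-/y replicate 3, and 1 gene was lower without WT replicate 4 or Mtm1-/y replicate 2. Under tamoxifen 3 were higher and 1 lower between the genotypes.

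Of 8 severing genes, *Katnal2*, a relative of the katanin subunit that cuts microtubules, rose from 0.414 ± 0.162 to 11.5 ± 3.88 CPM (log2 fold change 4.79, SE 0.82, edgeR adjusted p 0.000972) and *Spast*, the gene of spastin, was lower (-0.42, SE 0.08). Without Mtm1-/y + TAM replicate 3, 2 severing genes were lower. Under tamoxifen 1 was higher and 0 lower. Of 20 genes of nucleation and minus ends, *Pcnt*, of the centrosomal protein pericentrin, was the 1 called higher (0.60, SE 0.18), but not without WT replicate 1, WT replicate 3 or Mtm1-/y replicate 1. Without WT + TAM replicate 1, 2 genes of this list were higher. The 4 called lower were led by *Mzt1* (-0.52, SE 0.10), a component of the gamma tubulin ring, *Syne2* (-0.47, SE 0.10), the gene of the nuclear envelope protein nesprin-2, and *Cdk5rap2* (-0.42, SE 0.11), which recruits that ring. Under tamoxifen 1 was higher and 3 lower between the genotypes. The 5 of 20 called in this list and the 2 of 8 severing genes were likewise not above the share of all genes called. Of the 131 tested genes of these 8 lists, edgeR and limma-voom called 0 between treated and untreated libraries of the same genotype. At an unadjusted p under 0.05 there were 4 in the mutants and 18 in the wild type, where DESeq2 called 0 and 3.

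**Figure D4:**
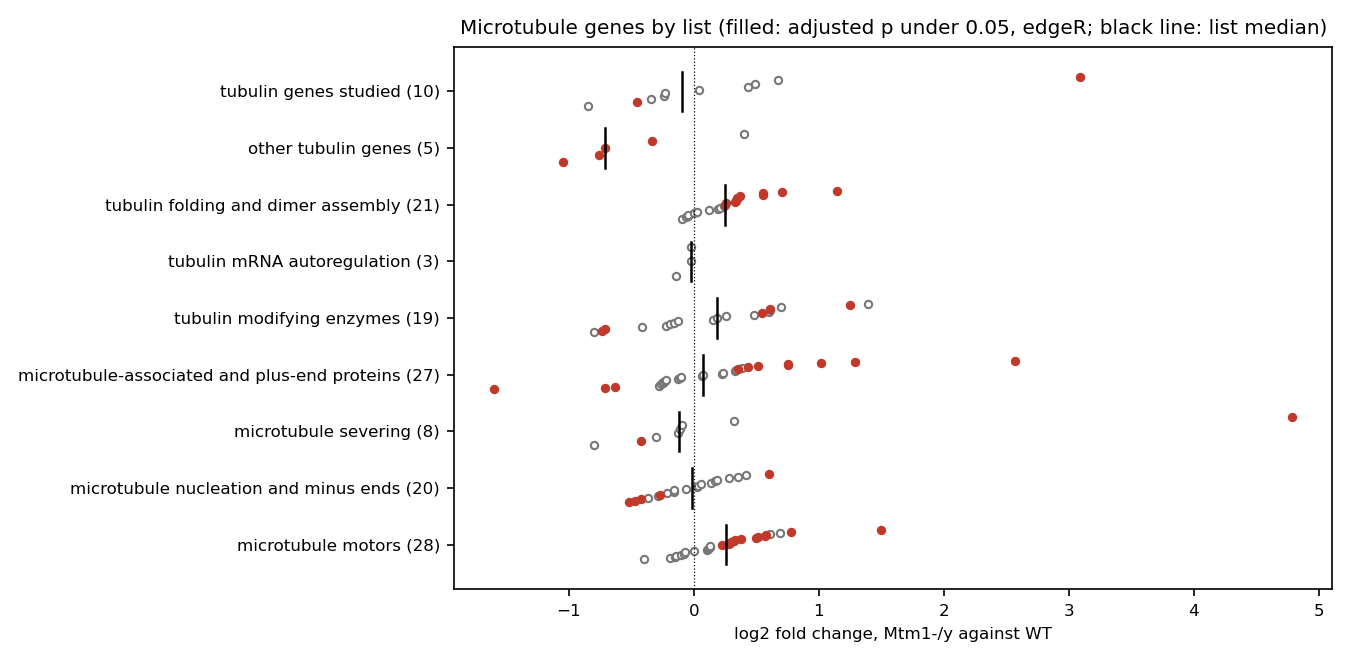
Log2 fold change (x axis) between Mtm1-/y and WT muscle of each tested gene of the microtubule lists, with the number tested in parentheses; filled points had an edgeR adjusted p under 0.05 and black lines are medians. The folding list and the motor list have filled points above 0 alone, 11 and 12 of them, and *Katnal2* at 4.79 and *Tubb6* at 3.09 lie farthest from 0.

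In whole muscle, fewer cells of a type and less RNA per cell cannot be told apart, so the marker lists are set beside *Tubb6*. The 9 markers of developing or denervated fibres were all called higher in Mtm1-/y than in WT muscle, and their summed level ran from 69.3 to 81.4 CPM in WT, 75.4 to 119 in WT + TAM, 213 to 403 in Mtm1-/y and 254 to 354 in Mtm1-/y + TAM libraries. Mtm1-/y replicate 1 held the highest sum of them, 403 CPM, and the lowest *Tubb6* of the mutant libraries, 33.2 CPM. The 6 endothelial markers were all lower, with sums of 424 to 542 CPM over WT and 220 to 297 CPM over Mtm1-/y libraries, and the 6 tested of 8 dividing-cell markers were lower, with sums of 7.97 to 26.9 and 1.28 to 3.83 CPM. Of the satellite cell markers 3 of 5 were lower (sums 39.8 to 44.6 and 29.0 to 48.4 CPM). *Cdh15*, most of that sum, held 26.5 to 28.0 CPM in WT and 25.1 to 44.1 CPM in Mtm1-/y libraries. *Pax7* held 5.31 to 7.39 and 0.887 to 1.40 CPM, *Calcr* 0.738 to 1.34 and 0 to 0.159 CPM, and *Vcam1* 4.65 to 6.42 and 0.785 to 3.79 CPM. The ranges of *Myf5* overlapped. Of the smooth muscle and pericyte markers 2 of 5 were lower (539 to 679 and 351 to 456 CPM). Of the Schwann cell markers 2 of 5 were higher (67.2 to 96.8 and 88.3 to 123 CPM), as were 1 of 6 macrophage markers (14.8 to 29.2 and 18.1 to 51.5 CPM) and 1 of 6 fibroblast markers (1253 to 1575 and 358 to 1949 CPM). Of the fast fibre markers 2 of 10 were lower (190007 to 253232 and 150266 to 196665 CPM), as was 1 of 7 slow fibre markers (39.4 to 64.9 and 49.4 to 60.8 CPM). Of these 7 slow markers, 5 had log2 fold changes above 0, with a median of 0.87 over the list, and 0 were called higher. *Tnni1*, *Tnnt1*, *Tnnc1* and *Myh7* held at most 2.52, 3.23, 2.52 and 2.80 CPM in WT libraries. In Mtm1-/y libraries they held at least 11.7, 6.61, 6.51 and 3.09 CPM. *Myl3* went the other way, with 13.4 to 32.9 CPM in WT and 1.25 to 2.12 CPM in Mtm1-/y libraries. The ranges of *Myl2* and *Tpm3* overlapped. Between the treated genotypes edgeR called 4 of the 6 endothelial markers lower, with sums of 296 to 508 and 227 to 298 CPM. Of the 6 tested dividing-cell markers 0 were called there (1.66 to 10.7 and 2.76 to 7.41 CPM). Over WT + TAM libraries the slow fibre sum ran from 36.5 to 1196 CPM (median 79.7) and the fibroblast sum from 877 to 4695 CPM. Both highest sums were those of WT + TAM replicate 1, which stood apart. The lowest fibroblast sum in Mtm1-/y, 358 CPM, was that of replicate 1, the other library that stood apart. The part of these cell types in the tubulin values was not tested.

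Markers of axons were near the limit of detection. The 4 axon markers summed to 0.991 to 2.14 CPM per library, 1 of them passed the filter and was not called by edgeR, DESeq2 or limma-voom between Mtm1-/y and WT, and *Nefl*, a neurofilament gene that defines axons, was at 0 in 12 of 15 libraries. Of the platelet and red cell markers 4 passed the filter and none was called by edgeR, DESeq2 or limma-voom (their sum had a median of 21.5 CPM over WT and 16.6 CPM over mutant untreated libraries; 0 at an unadjusted p under 0.05), with the platelet gene *Ppbp* at 0 in 9 libraries. None of the 4 adipocyte markers was called by these tools, and 0 had an unadjusted p under 0.05 (3.05 to 5.37 and 0.381 to 2.46 CPM). Over WT + TAM libraries the adipocyte sum ran from 0.229 to 37.2 CPM, with the highest in replicate 1.

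**Figure D5:**
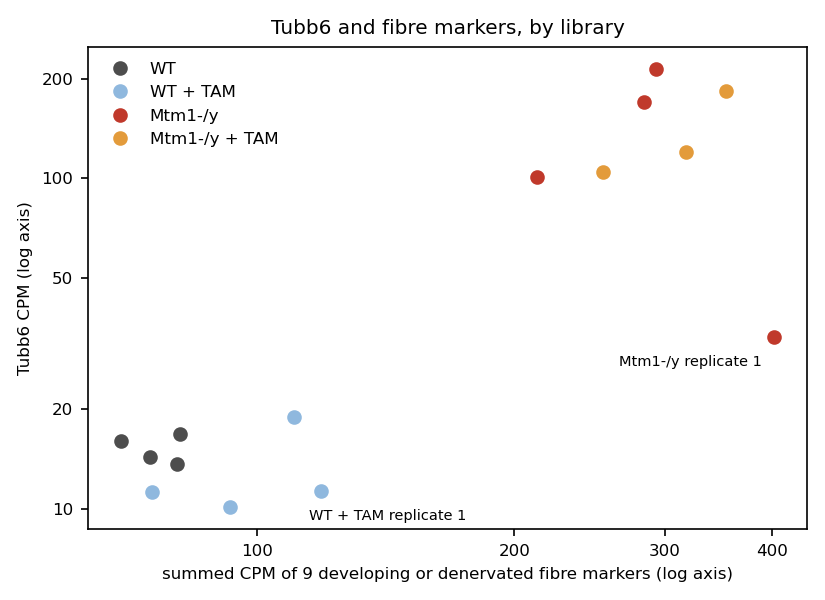
*Tubb6* CPM (y axis, log scale) against the summed CPM of the 9 markers of developing or denervated fibres (x axis, log scale), 1 point per library. Wild-type libraries lie at the lower left and mutant libraries at the right, where Mtm1-/y replicate 1 combines the highest marker sum (403 CPM) with the lowest mutant *Tubb6* (33.2 CPM).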

How the data were processed

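Per the labels, RNA of tibialis anterior was made into libraries with a TruSeq Stranded mRNA kit. Alignment and counting tools in the submitters' processing notes were STAR 2.5.3a, Bowtie2 2.2.8, HTSeq 0.6.1p1 and cutadapt 1.10, with the mm10 (GRCm38) build. The authors deposited raw counts per gene, 1 column per library, and every column was mapped to a sample. HTSeq drops reads that match several places by default, which lowers genes with close copies; the setting used was not stated there. All 30672 identifiers were named from GENCODE M21. Genes were filtered with filterByExpr (minimum count 10), scaled with TMM and tested in R 4.3.3 with edgeR 4.0.16 (quasi-likelihood, 4 group means over 15 libraries, two-sided), with Benjamini-Hochberg adjustment over 15533 genes and a threshold of 0.05. The scripts were tested on simulated data. DESeq2 1.42.0 and limma-voom 3.58.1, other scalings and filters, and leaving out each library were alternatives. Levels per kilobase used the union of exons. Likeness was Pearson's r of log2 CPM (prior count 2). Named list genes were the 3 per direction with the largest called change between Mtm1-/y and WT with mean log2 CPM not under 1, and all tubulin genes; markers and overlapping genes were named after their values were seen. The members and lists were chosen with earlier results of these data known. Counting error and depth limit low genes most. Coding ends of some members are not reported here.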

Additional observations from a re-analysis of the deposited data

How the results depend on the processing

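Of 1185 log2 fold changes of single tubulin genes under alternatives, none of a called value changed sign, 15 passed the threshold where the reported one had not and 6 lost it. *Tubb6* kept its call under every alternative in both comparisons of genotype. For members called, Mtm1-/y against WT, the count of 2 became 1 with an absolute log2 fold change over 1, 1 when only the groups compared were fitted, and 5 without both libraries that stood apart; leaving out 1 library gave 1 to 4. For Mtm1-/y + TAM against WT + TAM, the count of 3 became 5 without both libraries, and leaving out 1 library gave 1 to 4. Whether replicate numbers pair the libraries was not settled. Over 21 same-numbered pairs the correlation of deviations from group means was -0.113 to 0.306, with 6 over the limit of 0.1. With the replicate block 3 and 4 tubulin genes were called in those comparisons, and 0 in the comparisons of tamoxifen and the interaction. These were 0 under every alternative run. Other lengths (those from unshared stretches chosen after seeing the data) moved 45 isotype shares by more than 1 SD, and leaving out both libraries moved 0. *Tubb2b*, at 8 to 47 counts per library, was left out by the stricter filter. Depth limits *Tubb2b* and *Tuba1c* most.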
